A study of Mus musculus with 2 samples.

Results

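Expression of 10 genes of VEGF and angiopoietin signalling was compared between a pair of striatal mouse cell lines that carry normal or expanded huntingtin. The genes were taken by name from the authors' deposited table of 23176 genes: the ligands Vegfa, Vegfb, Vegfc, Figf (named Vegfd in RefSeq), Angpt1 and Angpt2 and the receptors Flt1, Kdr, Flt4 and Tek. All 10 were listed, and 9 of them had a test. The line STHdhQ7 has the genotype HdhQ7/Q7, and the line STHdhQ111 has HdhQ111/Q111, in which the huntingtin gene carries an expanded CAG repeat. Both come from the embryonic day 14 striatum of a 129SvEv/CD1 background, were used below passage 15, and were grown at 33 °C before 2 days at 39 °C, which stops their division. Each genotype is 1 cell line, and an effect of genotype cannot be told apart from one of the line's own history. The titles name 3 replicates per line, and the values are the authors' single combined FPKM per line (fragments per kilobase of transcript scaled to the mapped fragments). No spread of the replicates can be computed, the depth is unknown, and the FPKM of all genes added up to 426021 for STHdhQ7 and 427714 for STHdhQ111.

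VEGF ligands are secreted growth factors that bind receptor tyrosine kinases. Vegfa acts on Flt1 and Kdr and drives blood vessel growth, Vegfb binds Flt1, and Vegfc and Figf act on Flt4, the receptor of lymphatic vessels. Flt1 binds Vegfa tightly but signals weakly, and its secreted form acts as a decoy. Angpt1 activates the receptor Tek (also known as Tie2) and stabilises vessels, whereas Angpt2 can block that activation. In the brain these factors come largely from neural progenitors, glia and mural cells, and the receptors sit mainly on endothelium, although neural cells can carry some of them. In bulk RNA, fewer cells of a type and less RNA per cell cannot be told apart.

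The bases upstream of the starts of 3 genes that differed between the lines are shown because the study as a whole concerns DNA methylation, whose usual target in mammals is the CG dinucleotide. They come from the RefSeq start windows (build GRCm38.p6), run 5′ to 3′ on the strand of the gene, and have every CG in capitals. The Flt1 bases lie on the minus strand at chr5:147726012-147726261, those of Tek on the plus strand at chr4:94739039-94739288, and those of Figf on the plus strand at chrX:164373272-164373377, where they stop before the first GENCODE exon.
Flt1: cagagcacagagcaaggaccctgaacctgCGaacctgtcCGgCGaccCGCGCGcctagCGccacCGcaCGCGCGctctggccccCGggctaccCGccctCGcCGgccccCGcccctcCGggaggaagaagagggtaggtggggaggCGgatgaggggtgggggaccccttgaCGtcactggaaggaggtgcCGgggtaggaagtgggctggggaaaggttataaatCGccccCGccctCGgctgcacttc
Tek: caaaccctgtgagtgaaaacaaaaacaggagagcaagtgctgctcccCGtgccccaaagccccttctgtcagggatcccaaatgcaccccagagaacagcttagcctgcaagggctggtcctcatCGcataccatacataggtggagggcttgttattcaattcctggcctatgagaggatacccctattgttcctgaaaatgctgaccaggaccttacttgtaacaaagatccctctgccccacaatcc
Figf: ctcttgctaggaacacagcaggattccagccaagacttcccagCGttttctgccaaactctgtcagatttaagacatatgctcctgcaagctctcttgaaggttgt

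Flt1 and Flt4 were lower and Figf and Tek were higher in STHdhQ111, and the changes ran from 2.42-fold for Figf to 9.51-fold for Flt1. Genes with a q of 0.05 or less in the authors' deposited table are referred to as called. Of the 9 tested members 4 were called, 2 in each direction, while 13.5% of the 12740 tested genes of the table were called (6.35% higher and 7.17% lower). On a log2 scale with 0.5 FPKM added to each value, the ratio of STHdhQ111 to STHdhQ7 had a median of -0.15 over the 9 tested members and of -0.05 over all tested genes. With a q of 0.01 or less only Flt1 was called, while 9.61% of all tested genes were.

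**Figure D1:**
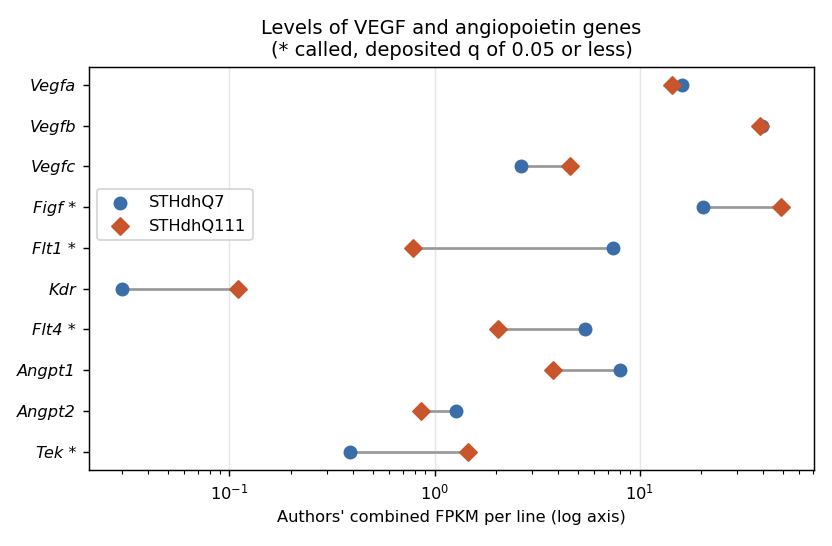
The authors' combined FPKM of each of the 10 genes on a log axis, with circles for STHdhQ7, diamonds for STHdhQ111 and an asterisk on the 4 called genes. Flt1 has the widest gap of the called genes (7.45 and 0.783 FPKM), the values of Vegfb nearly coincide, and Kdr is the lowest gene in both lines.

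Levels per transcript length ran from 0.0298 FPKM (Kdr) to 39.6 FPKM (Vegfb) in STHdhQ7 and from 0.110 FPKM (Kdr) to 49.2 FPKM (Figf) in STHdhQ111. In STHdhQ7 the order from the highest FPKM was Vegfb, Figf, Vegfa, Angpt1, Flt1, Flt4, Vegfc, Angpt2, Tek and Kdr. In STHdhQ111 it was Figf, Vegfb, Vegfa, Vegfc, Angpt1, Flt4, Tek, Angpt2, Flt1 and Kdr. Without replicate values, it cannot be said which neighbours in these orders differ beyond their spread. Flt1 moved from rank 5 to rank 9, and Figf from rank 2 to rank 1. Vegfb exceeded 83.9% of all tested genes in STHdhQ7 and 83.5% in STHdhQ111, so this ligand was among the more abundant transcripts of both lines. Flt1 exceeded 42.8% of tested genes in STHdhQ7 and 9.45% in STHdhQ111.

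Among the VEGF ligands, Figf differed between the lines and the other members were not called. Figf (chromosome X, 160811480 to 160840579 on mm9, the build of all loci given here) encodes VEGF-D, a ligand of Flt4. STHdhQ7 had 20.3 FPKM of Figf and STHdhQ111 had 49.2 FPKM. In the authors' deposited table Figf had a log2 fold change of 1.27 ± 0.39 (implied standard error) and a q of 0.0115. Its 95% interval implied by the deposited statistic ran from 1.42-fold to 4.12-fold.

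Vegfa, the main angiogenic ligand (chromosome 17, 46153943 to 46169326), had 16.1 FPKM in STHdhQ7 and 14.4 FPKM in STHdhQ111 and was not among the called genes. The interval implied by the authors' deposited table ran from 0.498 to 1.61 times the STHdhQ7 level, and the q of Vegfa was 0.964. Vegfb, a ligand of Flt1 (chromosome 19, 7056962 to 7062141), was listed at 39.6 and 38.7 FPKM, with an implied interval from 0.544 to 1.76 times the STHdhQ7 level. The sign of the Vegfb difference turned when the ratios were recentred on the median of expressed genes. Vegfc, the other ligand of Flt4 (chromosome 8, 55162886 to 55271808), had 2.65 FPKM in STHdhQ7 against 4.60 FPKM in STHdhQ111. The authors' deposited table gave it a log2 fold change of 0.79 ± 0.52 (implied standard error), with a q of 0.449. Summed over the 4 VEGF ligands, FPKM came to 78.6 in STHdhQ7 and 106.9 in STHdhQ111. Figf made up 25.9% of that sum in STHdhQ7 and 46.0% in STHdhQ111, and Vegfb 50.3% and 36.2%.

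The VEGF receptors Flt1 and Flt4 were both lower in STHdhQ111, and Kdr was near 0 in both lines. Flt1 (chromosome 5, 148373772 to 148537564) encodes VEGF receptor 1, and the table does not separate its membrane-bound from its secreted form. The level of Flt1 was 7.45 FPKM in STHdhQ7 and 0.783 FPKM in STHdhQ111, 9.51-fold lower. In the authors' deposited table Flt1 had a log2 fold change of -3.25 ± 0.51 (implied standard error) and a q of 6.64e-09. Flt1 was the only member that kept its call with a q of 0.01 or less and with a minimum change of 4-fold. On the log2 scale with pseudocounts of 0.1 and 1 FPKM the Flt1 ratio was -3.10 and -2.24.

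Flt4, which encodes VEGF receptor 3 (chromosome 11, 49423181 to 49466241), went from 5.43 FPKM in STHdhQ7 to 2.03 FPKM in STHdhQ111, 2.67-fold lower. In the authors' deposited table Flt4 had a log2 fold change of -1.42 ± 0.44 (implied standard error) and a q of 0.0123. Kdr encodes VEGF receptor 2, the main signalling receptor for Vegfa (chromosome 5, 76329299 to 76374453). Kdr had no test, with 0.0298 FPKM in STHdhQ7 and 0.110 FPKM in STHdhQ111. Kdr stood above 0.722% and 2.07% of the tested genes, so its ratio rests on values close to 0 and no direction is drawn from it. The sum over the 3 VEGF receptors was 12.9 FPKM in STHdhQ7 against 2.93 FPKM in STHdhQ111. Flt1 held 57.7% of the receptor sum in STHdhQ7 and 26.8% in STHdhQ111, whereas Flt4 held 42.1% and 69.5%. In STHdhQ7 the level of Vegfa was 2.16 times that of Flt1, and in STHdhQ111 18.4 times. The level of Figf was 3.75 times that of Flt4 in STHdhQ7 and 24.2 times in STHdhQ111.

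**Figure D2:**
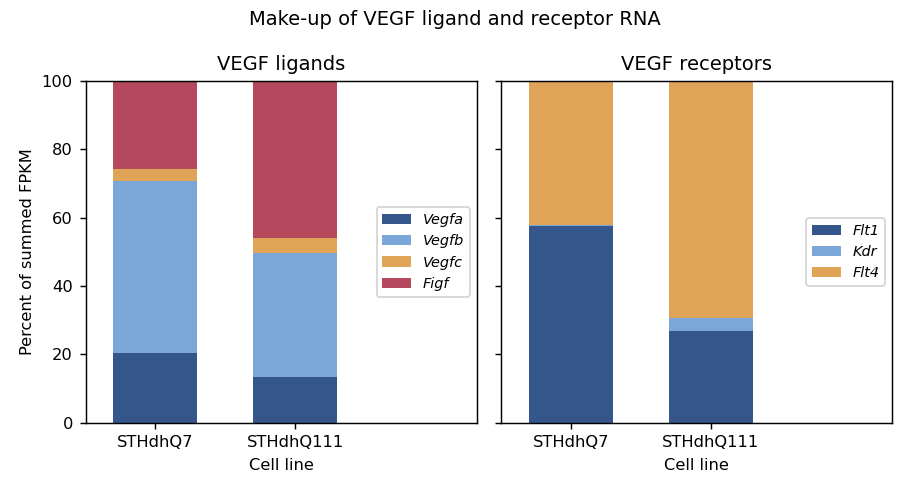
Stacked bars give the percent of summed FPKM that each VEGF ligand (left) and each VEGF receptor (right) held in STHdhQ7 and STHdhQ111. Figf takes 25.9% of the ligand sum in STHdhQ7 and 46.0% in STHdhQ111, and Flt4 takes 42.1% and 69.5% of the receptor sum.

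Among the angiopoietin members the receptor Tek was higher, and neither Angpt1 nor Angpt2 was called. Tek (chromosome 4, 94405991 to 94541630) had 0.386 FPKM in STHdhQ7 and 1.46 FPKM in STHdhQ111, 3.77-fold higher. In the authors' deposited table Tek had a log2 fold change of 1.92 ± 0.61 (implied standard error) and a q of 0.0150. Tek stayed low against other genes, above 3.37% of tested genes in STHdhQ7 and 15.9% in STHdhQ111. When the p-values were adjusted only over genes whose mean reached 1 FPKM, Tek was outside the tested set, its mean being 0.922 FPKM. In STHdhQ7 the level of Flt1 was 19.3 times that of Tek, and in STHdhQ111 Tek was 1.86 times Flt1.

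Angpt1, the activating ligand of Tek (chromosome 15, 42256271 to 42508341), had 8.02 FPKM in STHdhQ7 against 3.77 FPKM in STHdhQ111. The authors' deposited table gave it a log2 fold change of -1.09 ± 0.50 (implied standard error), and Angpt1 did not pass adjustment over the tested genes (the authors' p = 0.0301 and q = 0.163). Angpt2, the context-dependent antagonist (chromosome 8, 18595173 to 18803188), was listed at 1.28 and 0.860 FPKM. The interval implied for Angpt2 was the widest of the tested members, from 0.130 to 3.49 times the STHdhQ7 level. Its locus in the table is the same as that of Mcph1, a gene of chromosome condensation listed at 4.75 and 3.40 FPKM, and the library protocol is not described as marking strand. Reads where those genes overlap can then not be told apart, and the value of Angpt2 is uncertain. The level of Angpt1 was 6.28 times that of Angpt2 in STHdhQ7 and 4.39 times in STHdhQ111.

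**Figure D3:**
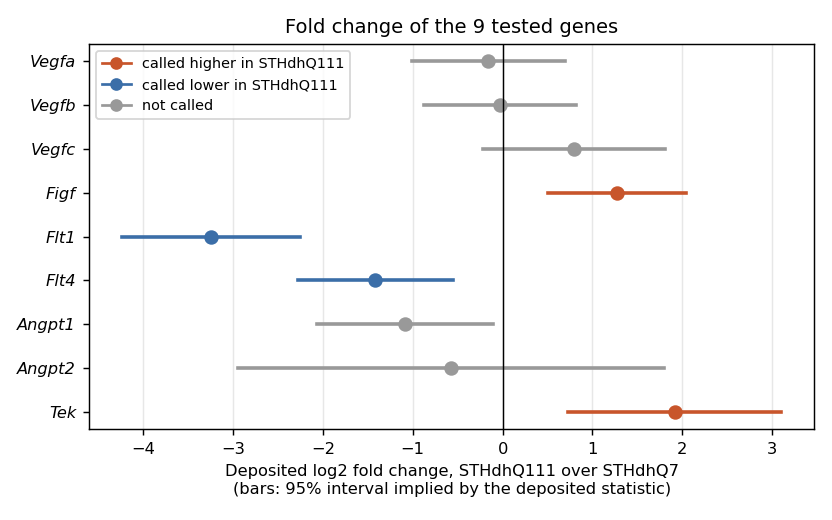
Log2 fold changes of the 9 tested genes in the authors' deposited table, STHdhQ111 over STHdhQ7, with the 95% intervals that the deposited statistics imply. Flt1 lies farthest from 0 at -3.25, and the grey interval of Angpt1 ends just below 0 although the gene did not pass adjustment over all tested genes.

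The coreceptors and other close partners of these genes also held called members. Of 7 such genes 6 had a test, and 1 was called higher, 2 lower and 3 were not called, while 13.5% of all tested genes were called. The median log2 ratio was -0.61. Neuropilin 2 (Nrp2), a coreceptor that helps Vegfc and Figf to act on Flt4, fell from 72.4 FPKM in STHdhQ7 to 8.67 FPKM in STHdhQ111. In the authors' deposited table Nrp2 had a log2 fold change of -3.06 ± 0.46 (implied standard error) and a q of 1.80e-09. Neuropilin 1 (Nrp1), the coreceptor of Vegfa, was not called, with 23.3 and 30.6 FPKM. The level of Nrp2 was 3.11 times that of Nrp1 in STHdhQ7, while in STHdhQ111 that of Nrp1 was 3.53 times that of Nrp2.

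Ptprb, a phosphatase that dampens Tek, fell from 0.609 to 0.0175 FPKM, and Angpt4, a further Tek ligand, rose from 0.118 to 1.003 FPKM. Both genes were called, and both were low in both lines. The Tek relative Tie1 was at 0.00299 and 0 FPKM without a test. The heparan sulphate proteoglycan Gpc1 (82.9 and 59.4 FPKM) was not called. The placental growth factor gene Pgf, a Flt1 ligand, was not called either, at 2.04 and 1.02 FPKM.

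The angiopoietin-like factors are secreted proteins that resemble angiopoietins but do not bind Tek. Of 6 listed genes 4 had a test, with 1 called higher, 1 called lower, 2 not called and a median log2 ratio of -0.40, beside the 13.5% of all tested genes that were called. Angptl4, an inhibitor of lipoprotein lipase, rose from 6.54 to 60.7 FPKM. Angptl7 fell from 84.5 to 1.55 FPKM, with a large implied standard error in the authors' deposited table (1.69 on the log2 scale). The locus listed for Angptl7 is long (chromosome 4, 147822691 to 147931794). Overlap with other genes was looked up for the members only, so reads shared with another gene were not checked for Angptl7. Angptl2 was listed at 97.7 and 85.5 FPKM and Angptl6 at 2.19 and 1.25 FPKM, and neither was called.

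Few of the intracellular transducers downstream of these receptors were called. Of 37 genes 33 had a test and 2 were called, both lower, which is 6.06% of the tested genes of the list against 13.5% of all tested genes. At an unadjusted p under 0.05, 4 were lower and 2 higher, a count that was not made over all tested genes. The median log2 ratio was 0.01 (0.06 after recentring). Grb14, an adaptor that can bind Tek, fell from 18.01 to 6.67 FPKM. The Src family kinase Fyn fell from 31.2 to 14.9 FPKM, with a q in the authors' deposited table of 0.0494, close to the threshold. Hspb1, a small heat shock protein phosphorylated after VEGF stimulation (150.1 and 128.7 FPKM), and the GTPase Rac1 (116.8 and 116.2 FPKM) were not called. Phospholipase C gamma (Plcg1), which binds activated Kdr, was listed at 15.6 and 18.4 FPKM.

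Apln, Egr2 and Hbegf, which VEGF is known to induce in endothelial cells, were lower in STHdhQ111. Of 15 listed genes of this kind 12 had a test, and by the authors' deposited Cuffdiff test 3 were called lower, none higher and 9 were not called, while 7.17% of all tested genes were called lower. Log2 ratios below 0 were found for 11 of the 12, and for 54.5% of all tested genes. At an unadjusted p under 0.05, 6 were lower and 1 was higher, a count that was not made over all tested genes. The median log2 ratio was -0.70. The peptide hormone gene Apln fell from 5.86 to 1.01 FPKM, the zinc finger factor Egr2 from 5.72 to 1.04 FPKM, and Hbegf, a ligand of the EGF receptor, from 33.8 to 10.7 FPKM. Many other growth factors induce these genes. The tissue factor gene F3 was the exception in sign at 38.6 and 73.6 FPKM and was not called, nor was Egr1 (53.1 and 38.2 FPKM). The endothelial genes Nos3 (0.375 and 0.0554 FPKM) and Dll4 (0.0781 and 0.0741 FPKM) had no test.

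Hypoxia-inducible factor activates Vegfa and other genes in low oxygen, and the share of that pathway's listed genes that were called was near the share of all tested genes. Of 30 genes 29 had a test, 2 were called higher, 3 lower and 24 were not called. The share called was 17.2%, near the 13.5% of all tested genes, and the median log2 ratio was -0.10 (-0.05 after recentring). The collagen prolyl hydroxylase P4ha2 rose from 12.1 to 153.9 FPKM and adrenomedullin (Adm), a vasodilator peptide, from 3.09 to 14.5 FPKM. The oxygen sensor Egln3 fell from 3.77 to 0.439 FPKM, the HIF partner Arnt2 from 25.4 to 5.30 FPKM and Ndrg1 from 147.3 to 52.4 FPKM. The glycolytic genes Ldha (505.7 and 306.6 FPKM) and Aldoa (497.6 and 407.9 FPKM) were not called.

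Among secreted inhibitors of angiogenesis, Serpinf1 and Thbs2 were lower and Adamts1 and Cxcl10 higher in STHdhQ111. Of 18 genes 14 had a test, 2 were called higher, 2 lower and 10 were not called, a share called of 28.6% against 13.5% of all tested genes, and the median log2 ratio was 0.23. Serpinf1, which encodes the anti-angiogenic factor PEDF, fell from 68.5 to 14.1 FPKM and thrombospondin 2 (Thbs2) from 101.2 to 34.4 FPKM. The protease Adamts1, which can bind VEGF, rose from 7.61 to 20.9 FPKM, and the interferon-induced chemokine Cxcl10 from 1.59 to 45.5 FPKM. The abundant matrix proteins Sparc (822.1 and 875.7 FPKM) and thrombospondin 1 (Thbs1, 490.5 and 369.1 FPKM) were not called.

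**Figure D4:**
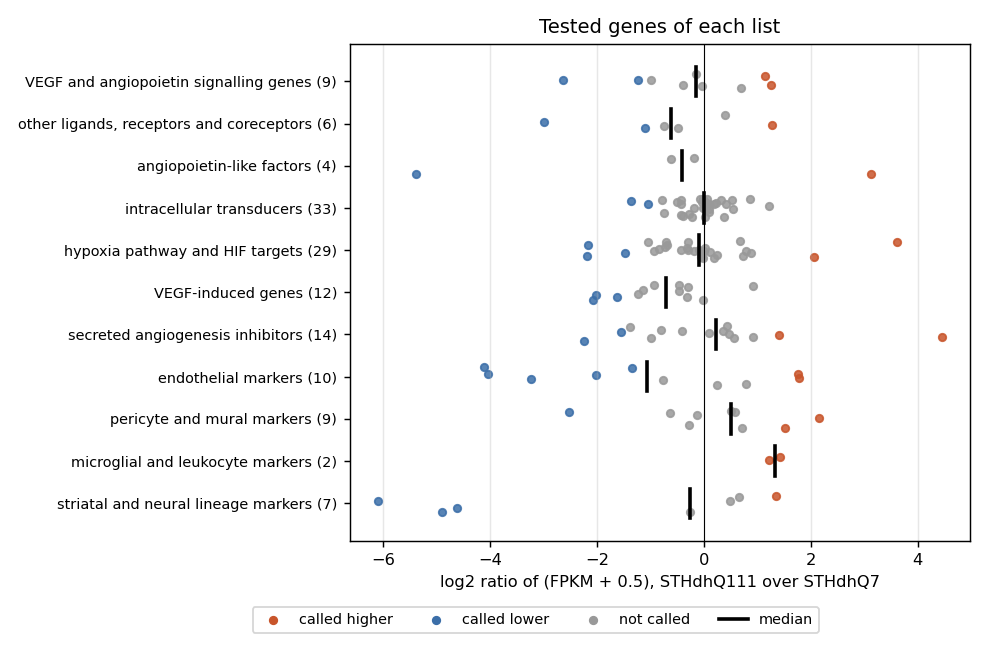
Each point is 1 tested gene at its STHdhQ111 to STHdhQ7 ratio on the log2 scale, 0.5 FPKM added, by list (tested genes in parentheses), in red where called higher, blue where called lower and grey where not called. Black bars are medians, which run from -1.05 for the endothelial markers to 1.33 for the 2 tested leukocyte markers; the endothelial median was -1.80 and -0.67 with pseudocounts of 0.1 and 1 FPKM.

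Most markers that define endothelium were near 0 in both lines. Of 26 endothelial markers other than the members, 16 were under 0.5 FPKM in both lines and 3 of those were at 0 in both. The junction gene Cdh5 was at 0.00477 and 0.0121 FPKM, Pecam1 at 0.0262 and 0.0527 FPKM, and Cldn5 at 0 in both. Among the 10 tested markers 5 were called lower, 2 higher and 3 were not called, while 13.5% of all tested genes were called. The surface glycoproteins Cd34 (67.9 to 3.67 FPKM) and podoplanin (Pdpn, 46.1 to 2.20 FPKM), both also found on mesenchymal cells, fell in the same direction as Flt1 and Flt4. Plvap, a protein of endothelial diaphragms, fell from 6.24 to 0.221 FPKM, and Mfsd2a, a lipid transporter, from 0.867 to 0.0398 FPKM. Erg, an ETS factor of endothelium, rose from 0.0868 to 1.53 FPKM, in the same direction as Tek. Mmrn2 was also called higher, at 0.175 and 1.80 FPKM, and Ramp2 was called lower, at 7.22 and 1.42 FPKM. Egfl7 (6.37 and 7.65 FPKM), Eng (0.992 and 2.10 FPKM) and Vwf (0.760 and 0.241 FPKM) were not called. The summed level of the 26 markers was 137.4 FPKM in STHdhQ7 and 21.6 FPKM in STHdhQ111. In STHdhQ7 most of that sum came from Cd34 and Pdpn. The part of the markers in the differences of Flt1, Flt4 and Tek was not tested.

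Some markers of pericytes and other mural cells, a known source of Angpt1, were abundant in both lines, and 4 of 13 were under 0.5 FPKM in both (Rgs5, Kcnj8, Abcc9 and Vtn). Of the 9 with a test, 2 were called higher, 1 lower and 6 were not called. The share called was 33.3%, against 13.5% of all tested genes. The summed level of the 13 was 518.8 FPKM in STHdhQ7 and 583.9 FPKM in STHdhQ111, most of it from Acta2. Cd248 rose from 20.1 to 91.4 FPKM and desmin (Des) from 9.02 to 26.6 FPKM, while Mcam fell from 16.5 to 2.48 FPKM. Acta2 (341.6 and 311.0 FPKM) and Notch3 (41.7 and 63.1 FPKM) were not called. The pericyte markers Rgs5 (0 and 0.0847 FPKM) and Kcnj8 (0 in both lines) were near or at 0. Their part in the Angpt1 values was not tested.

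Among 9 markers of microglia and leukocytes, 7 stayed under 0.5 FPKM in each line, and the exceptions Cd68 (26.5 to 72.4 FPKM) and Laptm5 (0.175 to 1.08 FPKM) rose. Cd68 and Laptm5 were the only 2 with a test and were called higher, while 6.35% of all tested genes were called higher. The summed level of the 9 was 26.9 FPKM in STHdhQ7 against 73.9 FPKM in STHdhQ111, nearly all of it from Cd68. The part of these markers in the values of the VEGF and angiopoietin genes was not tested. The dopamine receptor gene Drd1a was at 0 in both lines and Ppp1r1b, a defining gene of striatal projection neurons, at 0.136 and 0.0698 FPKM. The progenitor genes Sox2, Nes and Pax6 fell, and Dlx2 rose from 1.94 to 5.73 FPKM, among the 7 tested of 12 striatal and neural markers. These 4 were the called genes of that list, while 13.5% of all tested genes were called.

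The members lie on 8 chromosomes, with Flt1 and Kdr on chromosome 5 and Vegfc and Angpt2 on chromosome 8. Of the 8 nearest tested genes on either side of the 4 called members, 1 was called, and over all members 5 of 20 were, against a share of 13.5% of all tested genes. The called neighbour of a called member was Pir, which encodes a nuclear iron-binding protein and ends 534 bases before the Figf locus. Pir rose from 0.0272 to 2.50 FPKM, in the same direction as Figf, and the authors' deposited table gave it a log2 fold change of 6.52 ± 1.77 (implied standard error). Piga on the other side of Figf was listed at 3.45 and 1.81 FPKM. Next to Flt1, Pan3 was listed at 5.52 and 6.38 FPKM and Pomp at 116.8 and 104.1 FPKM. Next to Tek, Ift74 was listed at 10.5 and 7.31 FPKM and Mysm1 at 4.42 and 3.43 FPKM. Next to Flt4, Mgat1 was listed at 41.3 and 44.4 FPKM and Cnot6 at 21.9 and 21.7 FPKM, so none of these 6 neighbours shared a call with its member.

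The start windows differed in CG content. For 8 of the 10 members a RefSeq window was matched, and the 250 bases before each start were scanned for CG. No window was found for Angpt1 or Angpt2, neither of which was called, so both are missing from these counts. The windows of Tek and Figf, the members called higher, held 2 CG each, as the Tek sequence above shows. The 106 printed bases of Figf hold 1 of them, because printing stopped where its window first meets an exon in GENCODE. The windows of Flt4 and of the Vegfa start with 7 CG meet such an exon at their first base. Before Flt1 and Flt4, the members called lower, the counts were 23 and 16. Among the members that were not called or not tested the counts were 30 for Vegfc, 26 for Vegfb, 16 for Kdr, and 11 and 7 for the 2 starts of Vegfa. Over all 32851 RefSeq windows the median was 6 CG, and 29.0% of them held 2 or fewer. Those windows were not limited to tested genes. Of the 7952 tested genes with exactly 1 window, only 331 held 2 or fewer. Methylation was not measured in the values used here, and these counts describe the reference sequence only.

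**Figure D5:**
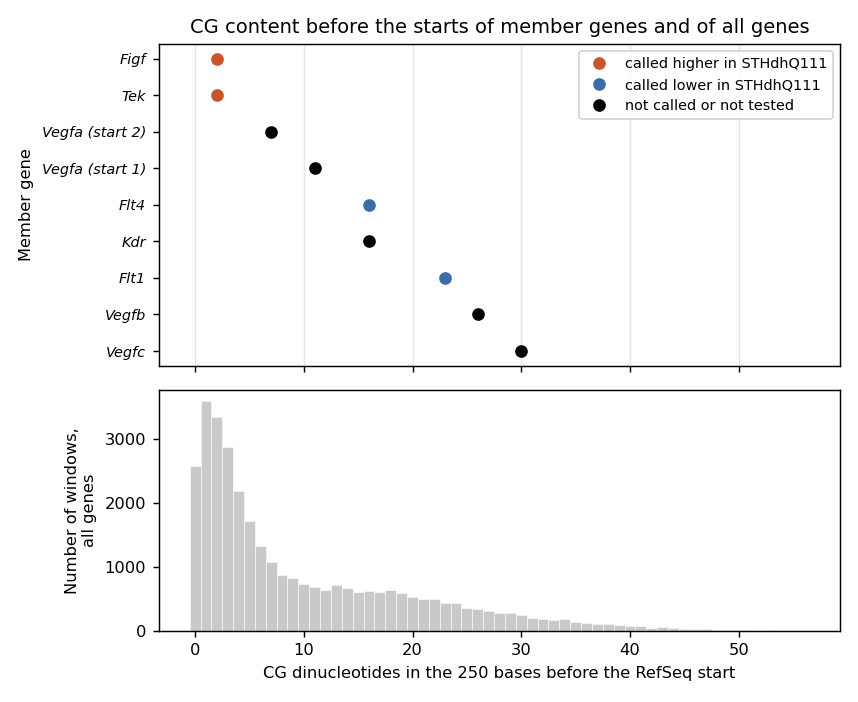
Upper panel, number of CG dinucleotides in the 250 bases before each RefSeq start of the members, coloured by call. Lower panel, the same count over all 32851 windows, whose median is 6, with Tek and Figf at 2 and Vegfc at 30.

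A pair of further motifs were counted on both strands in the same 250 bases. The core of ETS factor sites, GGAA, occurred in each of the 9 member windows, 4 times before Flt1, 3 times before Figf and 2 times before Tek, and 93.4% of all windows held it. The core of the hypoxia response element, ACGTG or GCGTG, occurred 1 time before Flt1, 2 times each before Kdr, Vegfb and the Vegfa start with 7 CG, and not before Tek, Figf, Flt4 or Vegfc, while 38.6% of all windows held it. A match is a description of the letters and not a binding site.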

How the data were processed

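Per the labels' protocols, mRNA was pulled down with oligo(dT) beads, fragmented, copied with random primers and sequenced with Illumina chemistry. The submitters' processing notes name the mm9 build, Bowtie 0.12.7, TopHat 1.4.0, Cuffdiff and Cufflinks 2.0.2. Annotation, options and scaling: not given in the sources used here. Per the file headers, the deposited table holds 1 FPKM value per line and, for the comparison of the lines, the authors' statistic, log2 fold change, q-value and p-value. The authors' deposited statistic behaves as a standard normal score, with a sign opposite to that of the fold change.

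The labels do not say whether the replicates were separate cultures, and the spread behind the deposited p-values may be technical. A two-sided normal tail of the statistic gave the deposited p-value back to within 2.7e-06, and Benjamini-Hochberg adjustment over the 12740 tested genes gave the q-value to within 2.2e-06. The implied standard error is the size of the deposited log2 fold change divided by the size of the statistic, and 95% intervals are normal. Lists were described by calls and by the median log2 ratio with a pseudocount of 0.5 FPKM, which understates changes of low genes. Locus starts were read as 0-based and raised by 1.

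The members and lists were chosen with earlier results of these data known. The naming rule took all members, the called genes of each list if 5 or fewer (otherwise the 5 with the largest fold change), the 2 uncalled tested genes with the highest mean FPKM, and the nearest tested genes of called members. Some genes it gives were left without values. Pgf, Plcg1, Mcph1, Mmrn2, Ramp2, Vwf and the untested genes were named after their values were seen. The comparison of promoters and the motifs were also chosen after the data were seen. RefSeq windows (GRCm38.p6) were matched by symbol or by a unique synonym. The comparison of proteins that was planned was not run. Calling and motif counting were tested on simulated data. Python 3.11.15, numpy 2.4.6, pandas 2.3.3, scipy 1.17.1 and matplotlib 3.10.9 were used.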

Additional observations from a re-analysis of the deposited data

How the results depend on the processing

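No paired analysis was possible because the table holds 1 combined value per line, and for the same reason no replicate could be left out. Of the 9 tested members, 4 were called with a q of 0.05 or less and the same number with 0.1 or less. With a q of 0.01 or less, or with a minimum change of 4-fold, 1 member was called, which was Flt1. Adjustment over genes whose mean reached 1 FPKM left 3 members called (Figf, Flt1 and Flt4). Over all tested genes the count was 1723, and it was 1048 with the 4-fold minimum, 1224 with a q of 0.01 or less, 2048 with 0.1 or less and 1413 after the adjustment over expressed genes. All 40 recomputed log2 ratios of members, under other pseudocounts and scalings, stayed within 1 implied standard error of the value given. The medians of lists have no such error. Of 30 recomputed medians, 26 kept their sign within 1.5 times the value given. That of the endothelial markers was -1.80 with a pseudocount of 0.1 FPKM and -0.67 with 1 FPKM, and after recentring that of the hypoxia list was -0.05 and that of the transducers 0.06. The called members kept their direction in these alternatives, with log2 ratios from 1.23 to 1.30 for Figf, 0.83 to 1.68 for Tek, -3.10 to -2.24 for Flt1 and -1.37 to -1.08 for Flt4. Among the ratios of members, only that of Vegfb changed sign (-0.03 to 0.02). The depth is unknown, and the wide intervals of Angpt2 and the lack of a test for Kdr limit what can be said of both.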

Other observations

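The CG counts were set beside the calls for all tested genes, with a boundary at 2 CG that was chosen after the values of Tek and Figf were seen. Of 7952 tested genes with exactly 1 RefSeq window, 331 held 2 or fewer CG in the 250 bases before the start, and 16.3% of these were called higher and 8.46% called lower in STHdhQ111. Of the 7621 genes with 3 or more CG, 5.84% were called higher and 6.47% lower. Tek and Figf are among the 54 genes with few CG that were called higher. No test was made of this difference, and expression level was not matched between the groups of genes.

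Of the 20 nearest tested neighbours of the members 5 were called, 4 of them beside members that were not called or not tested. The uncalled Angpt1 lies between a pair of called genes, a neighbourhood picked after the values were seen. Oxr1, an oxidation resistance gene, ends 563677 bases before it and fell from 47.9 FPKM in STHdhQ7 to 9.09 FPKM in STHdhQ111. Rspo2, a secreted activator of Wnt signalling, starts 343999 bases after it and rose from 0.186 to 12.7 FPKM. Angpt1 itself was listed at 8.02 and 3.77 FPKM. Pdgfra, a PDGF receptor gene and the nearest tested gene before Kdr at 735069 bases, rose from 3.34 to 9.28 FPKM, while Kdr stayed at or under 0.110 FPKM in both lines. Neil3, a DNA repair glycosylase gene and the nearest tested gene before Vegfc, fell from 2.11 to 0.468 FPKM.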
